A study of Mus musculus with 4 samples.

Results

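Histone lysine methylation is set by enzymes that add methyl groups (writers), by the core subunits that writers need for activity, and by enzymes that remove the groups (erasers). The genes described here were chosen by name, from the families Kdm1 to Kdm8, Setd, Setdb, Kmt2 to Kmt5, Suv39h, Suv420h, Ehmt, Ezh, Nsd and Whsc1 and the genes Eed, Suz12, Dot1l, Ash1l, Ash2l, Rbbp5 and Cxxc1, and the rule itself uses no measured value. This rule found 51 of the 24411 genes listed for each library, namely 29 writers, 5 core subunits and 17 erasers. By the main residue they act on, 15 belonged to lysine 4 of histone H3 (H3K4), 13 to H3K9, 6 to H3K27, 8 to H3K36 and 4 to H4K20 or H3K79, and 5 methyltransferase-family genes with other or uncertain targets formed the rest. All 51 matched a gene of the RefSeq annotation of GRCm38.p6.

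Polyadenylated RNA was sequenced from late two-cell mouse embryos of the ICR strain, produced by in vitro fertilization and collected at 36 h post-insemination (hpi). The DMSO group (2 libraries) was cultured with the vehicle alone, and the MYC-inhibited group (2 libraries) with 6 µM of 10074-G5, a small molecule that binds MYC and prevents its dimerization with MAX. The inhibitor was added at the one-cell stage, at 3 hpi by the treatment protocol and at 6 hpi by the design text. Each library pooled 10 whole embryos, so differences between single embryos were not measured, and a smaller number of cells with a transcript and a smaller amount of it per cell cannot be told apart.

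H3K4 methylation marks promoters and enhancers of active genes, and in the oocyte it lies in unusually broad domains that are remodelled in the two-cell embryo, when the embryonic genome is activated. Di- and trimethylation of H3K9 and trimethylation of H4K20 mark silent heterochromatin. H3K27 methylation is deposited by Polycomb repressive complex 2 (PRC2) over developmental genes, and H3K36 and H3K79 methylation accompanies transcription. The comparison of the groups asked which of these genes had other transcript levels when MYC was inhibited through genome activation.

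MYC and MAX bind the E-box CACGTG, and less strongly the variant CACGCG, so both motifs were searched on both strands in RefSeq promoter windows that reach from 250 bases before to 50 bases after each annotated start in GRCm38.p6. CACGTG was present in 7.15% of all 32851 windows and in 4 of the 49 windows of these genes (8.16%), which cover 37 of the 51 members. CACGCG, whose reverse complement is CGCGTG and whose sites cannot overlap a CACGTG site, was present in 9.27% of all windows and in 12 of the 49 member windows (24.5%). These matches describe letters in the windows and are not measured binding sites. The upstream bases of 5 members are shown because their transcripts had lower levels in the MYC-inhibited embryos (Kdm4c, Suv420h1 and Kdm1a, with log2FC values of -1.97, -1.57 and -1.32) or nearly equal ones (Kdm6a and Suz12, with 0.16 and 0.07), and capitals mark a motif. They are written 5′ to 3′ on the strand of the gene, at chr4:74251629-74251878 (plus strand, Kdm4c), chr19:3767171-3767361 (plus strand, Suv420h1), chr4:136602788-136602973 (minus strand, Kdm1a), chrX:18162325-18162574 (plus strand, Kdm6a) and chr11:79992856-79993105 (plus strand, Suz12).
Kdm4c: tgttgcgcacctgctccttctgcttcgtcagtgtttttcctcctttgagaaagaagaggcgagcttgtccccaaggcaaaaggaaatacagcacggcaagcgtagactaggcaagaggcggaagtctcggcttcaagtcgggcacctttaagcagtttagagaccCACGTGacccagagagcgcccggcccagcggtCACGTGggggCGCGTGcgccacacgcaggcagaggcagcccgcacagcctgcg
Suv420h1: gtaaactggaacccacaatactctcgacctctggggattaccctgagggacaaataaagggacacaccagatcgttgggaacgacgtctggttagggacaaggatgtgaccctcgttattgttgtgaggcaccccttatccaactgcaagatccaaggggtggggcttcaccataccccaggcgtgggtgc
Kdm1a: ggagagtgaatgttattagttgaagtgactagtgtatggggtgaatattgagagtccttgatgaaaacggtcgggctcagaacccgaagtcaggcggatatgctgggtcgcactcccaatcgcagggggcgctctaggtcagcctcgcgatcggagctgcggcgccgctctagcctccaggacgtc
Kdm6a: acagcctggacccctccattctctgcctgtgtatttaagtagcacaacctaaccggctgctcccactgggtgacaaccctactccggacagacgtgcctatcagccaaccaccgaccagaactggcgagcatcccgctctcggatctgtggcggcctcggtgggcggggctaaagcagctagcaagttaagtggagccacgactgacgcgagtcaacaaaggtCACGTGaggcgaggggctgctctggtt
Suz12: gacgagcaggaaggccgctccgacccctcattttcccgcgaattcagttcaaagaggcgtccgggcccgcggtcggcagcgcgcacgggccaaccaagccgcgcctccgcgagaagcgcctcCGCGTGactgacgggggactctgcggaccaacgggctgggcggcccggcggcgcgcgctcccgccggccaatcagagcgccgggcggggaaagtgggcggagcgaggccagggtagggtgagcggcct
The Kdm4c stretch held CACGTG at 85 and at 53 bases before the start and CACGCG at 43 bases before it, and the exon of the noncoding gene A230083N12Rik overlaps it. The other Kdm4c window, before the start of the annotated gene (chr4:74242247-74242496, plus strand), held neither motif in its upstream bases. The Kdm6a stretch held CACGTG at 27 bases before the start, and the Suz12 stretch held CACGCG at 128 bases before it. The Suv420h1 and Kdm1a stretches held neither motif, and the Kdm1a window held CACGCG beyond the stretch shown, at 3 and 11 bases after the start. The 5 genes shown were picked by their log2FC values, so they do not show how often a motif goes with a level. CACGTG was held by the windows of 3 members, Kdm4c, Kdm6a and Ehmt2, the last with a log2FC of -1.41. Kdm5a was among the members without a window. A relation between the motifs and the transcript levels was not tested.

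The libraries held between 18206584 and 20718690 expected counts (estimated read fragments per gene, summed). DMSO replicate 1 stood apart from the other libraries, with a Pearson's r of 0.887 with DMSO replicate 2 and of 0.825 and 0.844 with the MYC-inhibited libraries across the log2 CPM (a count relative to its TMM-scaled library size) of the 13549 tested genes, whereas DMSO replicate 2 had an r of 0.912 and 0.926 with the MYC-inhibited libraries. Results are therefore also given without DMSO replicate 1. The embryo label was checked with marker lists, and 14 of 14 oocyte and 12 of 13 two-cell markers had an FPKM (fragments scaled to transcript length and library size) of 1 or more in every library. Of 12 cumulus cell markers, Ptx3, Amh, Foxl2 and Inha were at 0 counts in all libraries. Counts were highest for Tnfaip6, with 0 and 95 in the DMSO and 93 and 38 in the MYC-inhibited libraries, and for Cyp19a1 and Star. Cyp19a1 had 23 and 25 counts against 128 and 27, and Star had 35 and 30 against 49 and 11. The cumulus list summed to 1.16 and 5.52 FPKM in the DMSO libraries and 7.37 and 2.67 in the MYC-inhibited ones. Of 8 sperm markers, Prm1, Tnp2 and Smcp were at 0, and the list summed to 2.7 and 4.51 FPKM in the DMSO and 17.2 and 9.43 in the MYC-inhibited libraries. Prm2 made up most of each sum, with 1.56 and 4.44 FPKM in the DMSO and 15.8 and 5.88 in the MYC-inhibited libraries. Its log2FC was 1.78 ± 1.04 (edgeR, adjusted p = 0.422).

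Most of the machinery was expressed at this stage. Of the 51 genes, 40 had an FPKM of 1 or more in every library (78.4%) and 5 stayed below 1 in all of them. The PRC2 core was the most abundant part, and its subunit Suz12, which stabilises the catalytic subunit, had the highest level with 261 and 309 FPKM in the DMSO and 358 and 301 in the MYC-inhibited libraries. Summed over all members, the level was 1120 and 1230 FPKM in the DMSO and 1210 and 1140 in the MYC-inhibited libraries, so in FPKM the totals of the groups overlapped. FPKM leaves out the TMM factors, which were 0.873 and 1.04 in the DMSO and 1.04 and 1.06 in the MYC-inhibited libraries. The totals were not taken on the TMM scale.

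**Figure D1:**
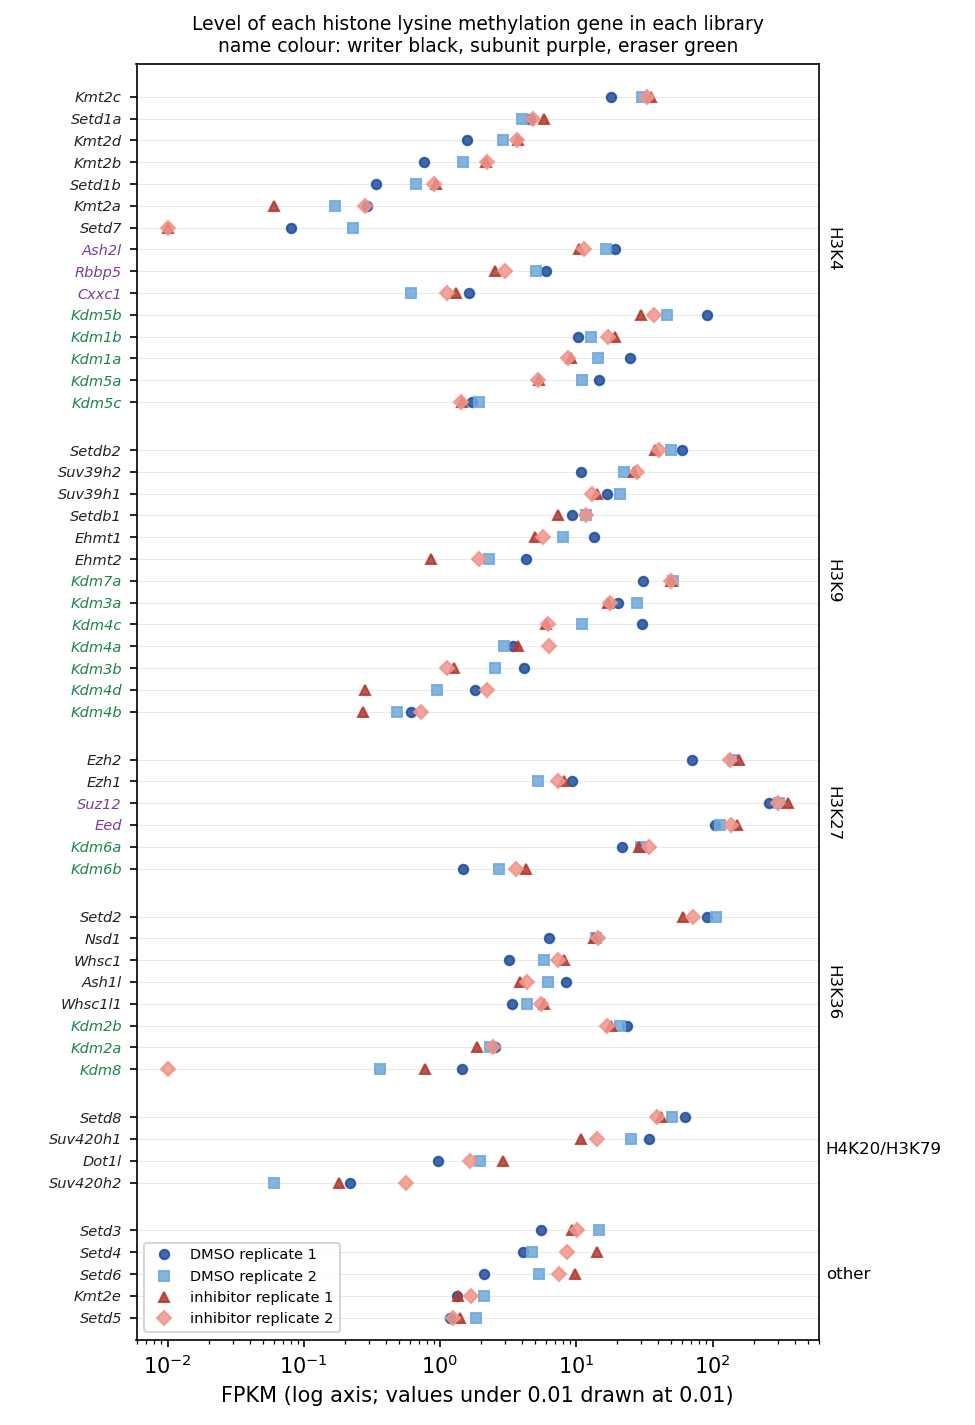
FPKM on a log axis of each of the 51 genes, grouped by target residue, with 1 point for each of the 4 libraries and gene names coloured by role; values under 0.01 are drawn at 0.01. Suz12 is at the far right (261 to 358 FPKM), and for Kdm4c and Suv420h1 both DMSO points lie to the right of both MYC-inhibited points.

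The difference between the groups was tested with edgeR's quasi-likelihood test and Benjamini-Hochberg adjustment over 13549 genes, of which 50 were members (Suv420h2 had too few counts). At the thresholds |log2FC| > 1 and adjusted p under 0.05, edgeR called 0 of the 50 members, and 0.0% of all genes in either direction, with a smallest adjusted p of 0.333. limma on log2 FPKM also called 0 members, and edgeR without the filter on low counts called 3 lower, beside 2.63% of all genes lower and 0.906% higher. At an unadjusted p under 0.05, 9 members were lower (18%) and 1 higher (2.0%) in the MYC-inhibited embryos, beside 10.1% and 4.72% of all tested genes. DESeq2 with effective transcript lengths as offsets called 3 members lower and 0 higher, or 5.88% of the 51. Of all 18208 genes with at least 1 count, it called 2.34% lower and 0.45% higher. All 426 genes called lower were among the 13549 tested by edgeR, so the share among those is higher than 2.34%. The 3 members called were the H3K9 and H3K36 eraser Kdm4c, the H3K4 eraser Kdm5a and the H4K20 writer Suv420h1. All 3 calls were lost when either MYC-inhibited library was left out, with edgeR log2FC values that stayed between -1.91 and -1.97 for Kdm4c, -1.41 and -1.43 for Kdm5a and -1.39 and -1.71 for Suv420h1. By DESeq2 with lengths and without DMSO replicate 1, the call of Kdm5a was kept and those of Kdm4c and Suv420h1 were lost. More members were called lower without DMSO replicate 2. The share of all genes called was not taken in these fits, so they give no result about the members.

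Of the 50 tested members, 30 had a lower mean in the MYC-inhibited embryos (60.0%, beside 48.5% of all genes), and the median log2FC over members was -0.30 beside 0.04 over all genes. Of the members, 12 had a log2FC below -1 and 2 above 1, beside 17.8% and 18.1% of all tested genes. The CPM of the groups did not overlap for 20 members that were lower (40.0%, beside 28.3% of all genes) and 12 that were higher (24.0%, beside 28.9%). Without DMSO replicate 1 the median was -0.05, and 6 members were lower at an unadjusted p under 0.05 (11.8%, beside 7.36% of all genes) and 1 higher (1.96%, beside 6.44%). For 35 of the 50 members DMSO replicate 1 was farther than DMSO replicate 2 from the mean of the MYC-inhibited libraries (70.0%), as for 77.2% of all tested genes. Scaling to library totals instead of TMM factors moved the median of all genes from 0.04 to 0.17 and that of the members from -0.30 to -0.14.

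**Figure D2:**
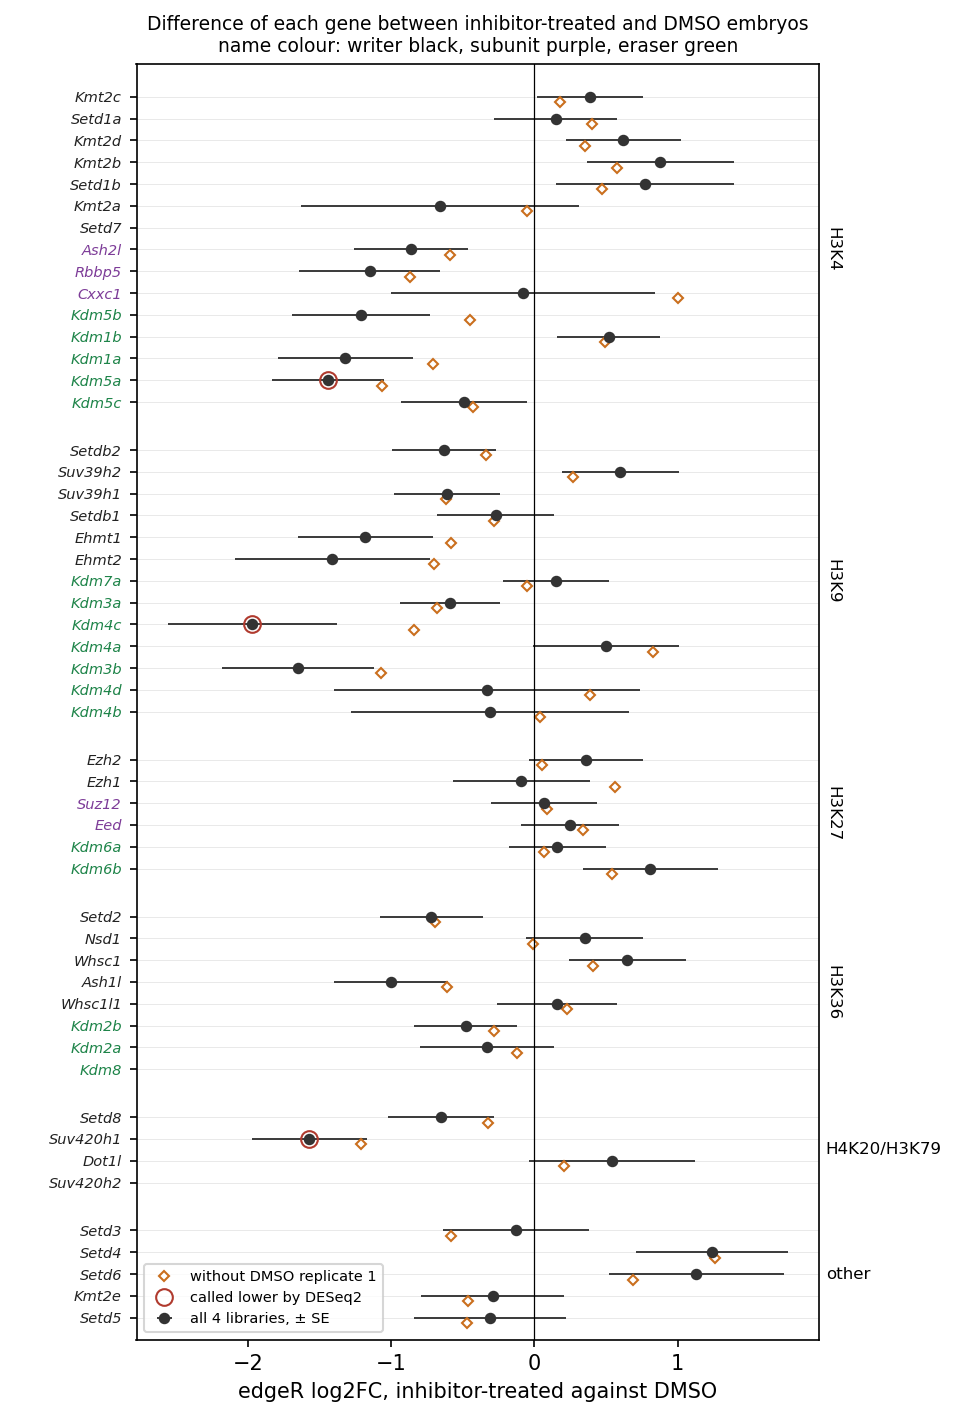
edgeR log2FC of the MYC-inhibited against the DMSO libraries for each gene, filled points with bars of ± 1 SE for all 4 libraries and open diamonds without DMSO replicate 1; rings mark the 3 genes called lower by DESeq2, and Setd7, Kdm8 and Suv420h2, with few counts, have no point. For Kdm4c the estimate is -1.97 with all libraries and -0.84 without DMSO replicate 1, and for Kdm5a it is -1.44 and -1.06.

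Most of the H3K4 erasers had lower levels in the MYC-inhibited embryos. Of the 5, 4 were lower in both MYC-inhibited libraries than in both DMSO libraries (28.3% of all tested genes were), and the median log2FC of the 5 was -1.21, and -0.45 without DMSO replicate 1. Kdm5a, a demethylase of tri- and dimethylated H3K4 encoded at chromosome 6, 120364099 to 120444574, had 14.7 and 11 FPKM in the DMSO and 5.37 and 5.23 in the MYC-inhibited libraries. The MYC-inhibited pair was tightly spaced and lay below both DMSO libraries. Its level fell by DESeq2 (log2FC -1.45 ± 0.45 SE, adjusted p = 0.0324), and edgeR gave -1.44 ± 0.39 with an unadjusted p of 0.00681 and an adjusted p of 0.333. Without DMSO replicate 1 the edgeR value of Kdm5a was -1.06 (unadjusted p = 0.00167).

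Kdm5b, the most abundant H3K4 eraser and a close relative of Kdm5a, had 90.5 and 46.0 FPKM in the DMSO and 29.9 and 37.4 in the MYC-inhibited libraries. The groups did not overlap, but DMSO replicate 1 was far above the rest, and the log2FC of -1.21 ± 0.48 (edgeR, adjusted p = 0.333) became -0.45 without it. Kdm1a, also known as LSD1, which removes mono- and dimethylation and whose maternal product is required for development beyond the two-cell stage, had 24.8 and 14.5 FPKM in the DMSO and 9.1 and 8.68 in the MYC-inhibited libraries. Its log2FC was -1.32 ± 0.47 (edgeR, adjusted p = 0.333; DESeq2, adjusted p = 0.0847) and -0.71 without DMSO replicate 1. Kdm1b, its paralogue that acts in the growing oocyte, went the other way with 10.3 and 12.9 FPKM in the DMSO and 19.4 and 17.0 in the MYC-inhibited libraries. Those groups did not overlap either, at a log2FC of 0.52 ± 0.36 (edgeR, adjusted p = 0.486). The X-linked Kdm5c was low in all libraries, from 1.43 to 1.94 FPKM.

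Among the H3K4 writers, 5 of 7 had a higher mean in the MYC-inhibited embryos and none passed a test. Their median log2FC was 0.39, and 0.35 without DMSO replicate 1. Kmt2c, an enhancer monomethyltransferase and the most abundant of them, had 18.1 and 30.3 FPKM in the DMSO and 35.5 and 33.2 in the MYC-inhibited libraries (log2FC 0.39, and 0.18 without DMSO replicate 1). The trimethylating enzyme Kmt2b, known as the main H3K4 writer of the oocyte, had 0.76 and 1.48 FPKM in the DMSO and 2.19 and 2.23 in the MYC-inhibited libraries (log2FC 0.88 ± 0.51, edgeR, adjusted p = 0.417, and 0.58 without DMSO replicate 1). Setd1b, another promoter enzyme that trimethylates, had 0.34 and 0.67 FPKM against 0.93 and 0.91. For these 3 genes DMSO replicate 1 was the lowest library and DMSO replicate 2 lay between it and the MYC-inhibited pair. The other writers ranged from 0.06 FPKM for Kmt2a to 5.77 for Setd1a, and 52.3% of the Setd1a exons overlap those of other genes, whose reads an unstranded library cannot separate. Setd7, a monomethyltransferase with many non-histone substrates, had 11 and 30 counts in the DMSO and 0 and 2 in the MYC-inhibited libraries, too few for a level.

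Of the 3 core subunits of the H3K4 complexes, 2 were lower in both MYC-inhibited libraries than in both DMSO libraries (28.3% of all tested genes were). None passed a test. Ash2l, which activates every KMT2 enzyme, had 19.2 and 16.4 FPKM in the DMSO and 10.4 and 11.4 in the MYC-inhibited libraries (log2FC -0.86 ± 0.40, edgeR, adjusted p = 0.35). Rbbp5, its partner in the same core, had 6.0 and 5.05 FPKM against 2.53 and 3.01 (log2FC -1.15 ± 0.49, edgeR, adjusted p = 0.334). Neither gene's groups overlapped, and the values were -0.59 and -0.87 without DMSO replicate 1. Cxxc1, which guides Setd1 complexes to unmethylated CpG islands, had 1.64 and 0.61 FPKM against 1.32 and 1.12, so its DMSO libraries enclosed the MYC-inhibited ones, and its log2FC of -0.08 changed sign with the scaling and was 1.0 without DMSO replicate 1.

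Erasers made up 84.6% and 68.5% of the summed FPKM of H3K4 writers and erasers in the DMSO libraries and 57.5% and 60.7% in the MYC-inhibited ones. The groups did not overlap, and the means were 76.6% ± 11.4 (SD, n = 2) and 59.1% ± 2.28 (SD, n = 2). Single genes weighed heavily in these sums. Kdm5b made up 90.5 of 142 and 46.0 of 86.4 FPKM of the erasers in DMSO replicates 1 and 2. Kmt2c made up 18.1 of 25.7 and 30.3 of 39.7 FPKM of the writers there. Without DMSO replicate 1 the edgeR log2FC was -0.45 for Kdm5b and 0.18 for Kmt2c. With 2 libraries against 2 an exact two-sided permutation test cannot give a p under 0.333, and no other test of the share was run. The eraser share of H3K9 was between 44.4% and 46.0% in every library, that of H3K27 between 16.8% and 22.3%, and that of H3K36 between 14.8% and 19.5%, each with overlapping groups.

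**Figure D3:**
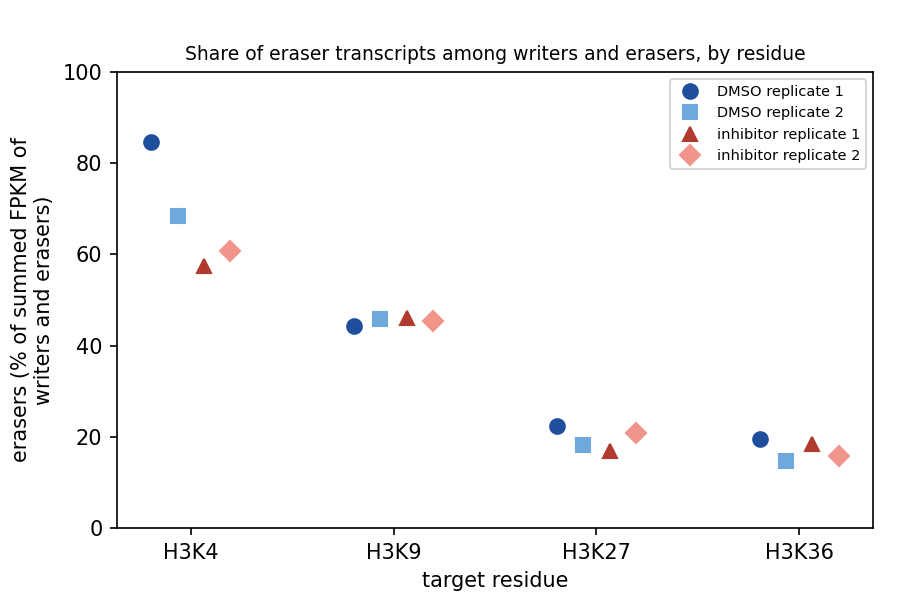
Share of erasers, in percent of the summed FPKM of writers and erasers, for 4 residues, with 1 point for each library. For H3K4 the DMSO libraries (84.6% and 68.5%) lie above the MYC-inhibited ones (57.5% and 60.7%), and for H3K9 all 4 lie between 44.4% and 46.0%.

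The oocyte and late two-cell lists moved across the libraries in the same order as the H3K4 genes. Each gene's log2 CPM was centred on its mean over the 4 libraries, and the median of the H3K4 erasers was 1.04 and 0.11 in DMSO replicates 1 and 2 and -0.57 and -0.40 in the MYC-inhibited libraries. That of a list of 19 tested genes of genome activation and the steps after it was 1.04 and 0.05 in the DMSO and -0.51 and -0.51 in the MYC-inhibited libraries, and their summed level was 4130 and 2080 FPKM against 1070 and 1390. The median of the H3K4 writers was -0.45 and -0.02 in the DMSO and 0.27 and 0.29 in the MYC-inhibited libraries. That of 14 oocyte transcripts was -1.05 and 0.02 against 0.48 and 0.47, with a summed level of 1060 and 2570 FPKM against 5120 and 4290. The 13 markers of the two-cell stage itself had medians of -1.25 and 0.13 in the DMSO and 0.65 and 0.56 in the MYC-inhibited libraries and summed to 1480 and 3470 FPKM against 5570 and 4690. In all of these groups DMSO replicate 1 was the extreme library and DMSO replicate 2 lay between it and the MYC-inhibited pair. The part of these transcripts in the H3K4 differences was not tested.

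**Figure D4:**
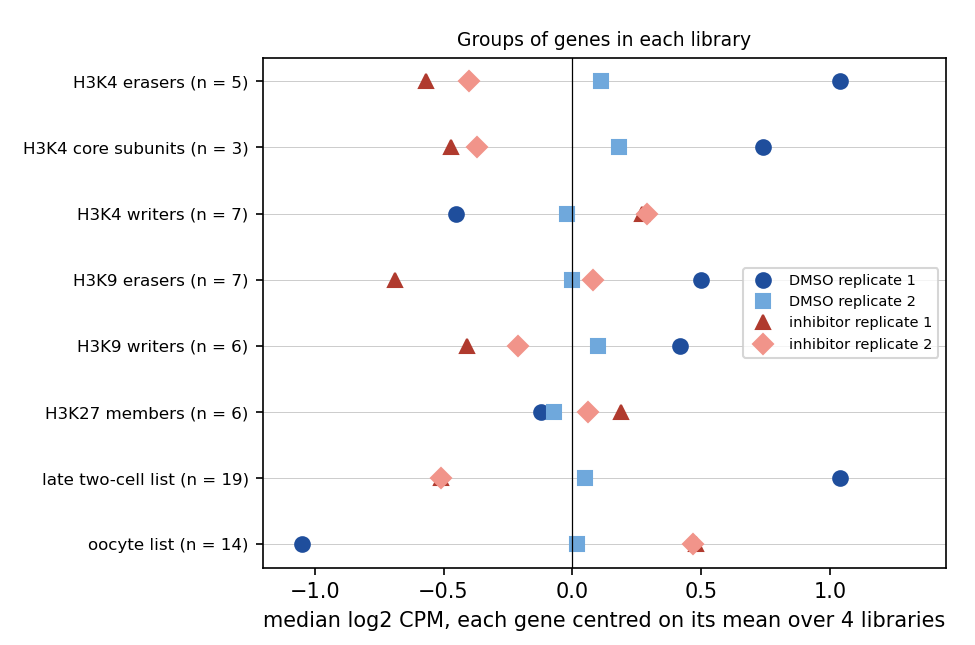
Median over the genes of a group of log2 CPM, each gene centred on its mean over the 4 libraries, with 1 point for each library. DMSO replicate 1 is at 1.04 for the H3K4 erasers and for the late two-cell list and at -1.05 for the oocyte list, and DMSO replicate 2 is nearer to 0 in each of these 3 groups.

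Kdm4c carried the largest difference of the H3K9 group and, among members with enough counts, of all 51. It removes di- and trimethylation from H3K9 and H3K36 and lies at chromosome 4, 74242497 to 74405864. Its level was 30.6 and 11 FPKM in the DMSO and 6.04 and 6.2 in the MYC-inhibited libraries. The MYC-inhibited pair was nearly equal, and DMSO replicate 1 was far above DMSO replicate 2, which in turn was above both. Kdm4c fell by DESeq2 (log2FC -1.98 ± 0.58 SE, adjusted p = 0.0222), edgeR gave -1.97 ± 0.59 with an unadjusted p of 0.011 and an adjusted p of 0.333, and the value was -0.84 without DMSO replicate 1. The related H3K9 erasers did not share one pattern. Kdm3b had 4.13 and 2.52 FPKM in the DMSO and 1.26 and 1.13 in the MYC-inhibited libraries (log2FC -1.65 ± 0.53, edgeR, adjusted p = 0.333, and -1.07 without DMSO replicate 1), with 28.5% of its exons overlapping another gene. Kdm7a, which also acts on H3K27 and was the most abundant H3K9 eraser, had 30.9 and 51.3 FPKM against 49.5 and 49.6, so that only DMSO replicate 1 was low. Kdm4d, a trimethyl-H3K9 demethylase of the testis and early embryo, had 1.8 and 0.95 FPKM against 0.28 and 2.2, and its MYC-inhibited libraries enclosed the DMSO ones.

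Of the 6 H3K9 writers, 4 were lower in both MYC-inhibited libraries and 1 was higher (28.3% and 28.9% of all tested genes were), and none passed a test; the median log2FC was -0.62, and -0.46 without DMSO replicate 1. Ehmt1 and Ehmt2, the partners GLP and G9a that dimethylate H3K9 together, had lower values side by side. Ehmt1 had 13.5 and 8.05 FPKM in the DMSO and 4.94 and 5.71 in the MYC-inhibited libraries (log2FC -1.18 ± 0.47, edgeR, adjusted p = 0.333). Ehmt2 had 4.28 and 2.28 FPKM against 0.86 and 1.93 (log2FC -1.41 ± 0.68, edgeR, adjusted p = 0.36). In both genes DMSO replicate 1 was the highest library, and without it the values were -0.58 and -0.70. The constitutive heterochromatin enzymes Suv39h1 and Suv39h2, which trimethylate H3K9, differed in sign. Suv39h1 had 16.9 and 20.9 FPKM in the DMSO and 14.1 and 13 in the MYC-inhibited libraries (log2FC -0.61 ± 0.37, edgeR, adjusted p = 0.438). Suv39h2 had 10.9 and 22.5 FPKM against 26.7 and 27.8 (log2FC 0.60 ± 0.41, edgeR, adjusted p = 0.475). The groups did not overlap for either paralogue, and without DMSO replicate 1 the values were -0.62 for Suv39h1 and 0.27 for Suv39h2. Setdb2, the most abundant H3K9 writer, had 59.7 and 49.5 FPKM against 38.1 and 40.4, and Setdb1, which silences retroelements, had 9.32 and 11.7 against 7.37 and 11.8, with overlapping groups.

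The 6 H3K27 genes had log2FC values between -0.09 and 0.81, with a median of 0.21, and none passed a test. Ezh2, the main catalytic subunit of PRC2, had 71.1 and 141 FPKM in the DMSO and 157 and 134 in the MYC-inhibited libraries (log2FC 0.36 ± 0.40, edgeR, adjusted p = 0.667, and 0.05 without DMSO replicate 1). Eed, which binds the trimethylated mark and stimulates the enzyme, had 105 and 113 FPKM against 150 and 136 (log2FC 0.25 ± 0.34, edgeR, adjusted p = 0.737). For Suz12 the log2FC was 0.07 ± 0.37. In FPKM, DMSO replicate 1 was the lowest library for all of these 3 core genes. In CPM this held for Ezh2, with 193 and 322 in the DMSO and 359 and 301 in the MYC-inhibited libraries. For Eed, DMSO replicate 2 was lowest in CPM (215 and 193 against 257 and 229). For Suz12, MYC-inhibited replicate 2 was lowest in CPM (1220 and 1220 against 1410 and 1160). Only for Eed did the groups not overlap. Ezh1, the alternative catalytic subunit, had 9.33 and 5.25 FPKM against 8.11 and 7.37. The erasers Kdm6a and Kdm6b, also known as UTX and JMJD3, had 21.6 and 29.9 FPKM against 29.1 and 33.9 and 1.48 and 2.71 against 4.31 and 3.6, respectively. Only the Kdm6b groups did not overlap (log2FC 0.81 ± 0.47, edgeR, adjusted p = 0.419, and 0.54 without DMSO replicate 1).

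Setd2, which trimethylates H3K36, travels with RNA polymerase II and sets maternal H3K36 methylation in the oocyte, was the most abundant H3K36 gene. It had 91.7 and 106 FPKM in the DMSO and 60.4 and 71.5 in the MYC-inhibited libraries. The groups did not overlap, the log2FC was -0.72 ± 0.36 (edgeR, adjusted p = 0.368), and leaving out DMSO replicate 1 gave -0.69. Ash1l, an H3K36 dimethyltransferase of the trithorax group, had 8.39 and 6.25 FPKM against 3.86 and 4.35 (log2FC -1.0 ± 0.40, edgeR, adjusted p = 0.333, and -0.61 without DMSO replicate 1). Whsc1, the dimethyltransferase now named Nsd2, had 3.23 and 5.78 FPKM against 8.11 and 7.3 (log2FC 0.65 ± 0.41, edgeR, adjusted p = 0.444, and 0.41 without DMSO replicate 1). The writers therefore lay on both sides of 0, and none of them passed a test. Of the erasers, Kdm2b, which also recruits a variant Polycomb complex to CpG islands, had 23.4 and 21 FPKM against 18 and 16.8 (log2FC -0.48 ± 0.36, edgeR, adjusted p = 0.522, and -0.28 without DMSO replicate 1). Kdm8 had 60 and 14 counts in the DMSO and 35 and 0 in the MYC-inhibited libraries, which is too few for a comparison. The median log2FC of the group was -0.40, and -0.06 without DMSO replicate 1.

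Suv420h1, now named Kmt5b, adds further methyl groups to singly methylated H4K20 and lies at chromosome 19, 3767362 to 3818303. Its level was 34.0 and 25.1 FPKM in the DMSO and 10.9 and 14.2 in the MYC-inhibited libraries. Both DMSO libraries were well above both MYC-inhibited ones. Suv420h1 fell by DESeq2 (log2FC -1.41 ± 0.47 SE, adjusted p = 0.0457), and edgeR gave -1.57 ± 0.40 with an unadjusted p of 0.00503 and an adjusted p of 0.333. Without DMSO replicate 1 the edgeR value was -1.21 (unadjusted p = 0.00145). Setd8, now named Kmt5a, which adds the first methyl group that Suv420h1 works on, had 63.2 and 50.8 FPKM against 41.8 and 39.4. These groups did not overlap (log2FC -0.65 ± 0.37, edgeR, adjusted p = 0.414, and -0.32 without DMSO replicate 1). The paralogue Suv420h2 was barely present, with 8 and 2 counts in the DMSO and 7 and 21 in the MYC-inhibited libraries. Dot1l, the H3K79 methyltransferase, had 0.97 and 1.98 FPKM against 2.92 and 1.67, with overlapping groups.

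Of the 5 genes with other or uncertain targets, Setd4 was the member that was higher at an unadjusted p under 0.05. It had 4.06 and 4.73 FPKM in the DMSO and 14.2 and 8.52 in the MYC-inhibited libraries (log2FC 1.24 ± 0.53, edgeR, unadjusted p = 0.0485, adjusted p = 0.334), and the value without DMSO replicate 1 was 1.26. Setd6, which methylates a subunit of NF-κB, had 2.1 and 5.34 FPKM against 9.86 and 7.41 (log2FC 1.13 ± 0.61, edgeR, adjusted p = 0.399, and 0.69 without DMSO replicate 1). In both genes the MYC-inhibited libraries lay above the DMSO ones. Setd3, an actin histidine methyltransferase, had 5.55 and 14.7 FPKM against 9.37 and 10.2, so that its DMSO libraries enclosed the others. Setd5 had 1.19 and 1.84 FPKM against 1.41 and 1.25.

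A list of 58 further names of the pathway, made up of complex partners, readers and smaller methyltransferase and demethylase families, was examined beside these genes. 54 were listed and 52 tested, with a median log2FC of -0.10. By edgeR none was called, and 10 were lower and 0 higher at an unadjusted p under 0.05, beside 10.1% and 4.72% of all tested genes. DESeq2 called 3 lower and 0 higher, beside 2.34% and 0.45% of all genes with at least 1 count. Mtf2, which recruits PRC2 to CpG islands, had 401 and 324 FPKM in the DMSO and 153 and 175 in the MYC-inhibited libraries, and fell (log2FC -1.31 ± 0.42 SE, DESeq2, adjusted p = 0.0361). Mina, now named Riox2, a ribosomal oxygenase also described as an H3K9 demethylase, had 117 and 68.4 FPKM against 16.6 and 32.4, and fell (log2FC -2.11 ± 0.52 SE, DESeq2, adjusted p = 0.00677). Smyd5, a SET-domain methyltransferase, had 16.1 and 9.43 FPKM against 2.22 and 3.67, and fell (log2FC -2.31 ± 0.60 SE, DESeq2, adjusted p = 0.0111). Other PRC2 accessory subunits of the list were not called, with edgeR log2FC values of 0.84 ± 0.43 for Phf1, 0.04 ± 0.38 for Jarid2 and -0.44 ± 0.40 for Aebp2. Without DMSO replicate 1 the edgeR values of Mtf2, Mina and Smyd5 were -0.98, -1.48 and -1.68.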

How the data were processed

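RNA-seq of 4 libraries of pooled late two-cell embryos (2 DMSO, 2 MYC-inhibited, grouped by the labels) was used. Polyadenylated RNA went into a SMART-Seq v4 kit, which does not mark the strand, and the authors aligned read pairs to mm10 by STAR (2.7.10), dropped reads with several matches and ran RSEM (1.3.3), so genes with near-identical copies can lose reads. The deposited expected count is RSEM's estimate of fragments per gene and is not normalized. The deposited FPKM is scaled by the authors to effective transcript length and library size. The deposited TPM, scaled to a fixed total, served as a check of the unit. The effective length deposited by the authors, in bases, served as the DESeq2 offset.

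Expected counts were rounded, filtered with filterByExpr (minimum count 10, minimum total 15), scaled with TMM and tested with edgeR 4.0.16 (quasi-likelihood, robust, two-sided) in R 4.3.3, with Benjamini-Hochberg adjustment over 13549 genes. SE is |log2FC| divided by the square root of F. Thresholds were |log2FC| > 1 and adjusted p under 0.05, and edgeR's common coefficient of variation was 0.557. Alternatives were DESeq2 1.42.0 (adjusted p left empty stayed empty), limma 3.58.1 on log2(FPKM + 1) and log2(FPKM + 0.1) at a mean FPKM of at least 1, other scalings and filters, a replicate block and each library left out. DESeq2 with lengths and each library left out was added after the values were seen. The procedures were tested on simulated counts.

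The members, roles and lists were chosen with earlier results of these data known, so no list is independent support. Values per library are given for members called by any test, the 3 with the smallest unadjusted p in each residue group, the highest FPKM in each group and role, and a preset list of well-known members. Rbbp5 and the few genes named with a range or a low count fall outside that rule and were named after their values were seen. Partner genes are named where called, and Phf1, Jarid2 and Aebp2 were added after their values were seen. The paper calls the 2 libraries of each group biological replicates. Nothing states that they came from separate fertilizations, so p-values measure the spread between these libraries, which may be partly technical. PCR copies were counted as molecules.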

Additional observations from a re-analysis of the deposited data

How the results depend on the processing

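The number of members called was 0 by edgeR and 3 by DESeq2 on the same genes, on all genes with at least 1 count and with effective lengths, and 3 by edgeR with no filter on low counts (Kdm4c, Kdm5a and Suv420h1 each time). Leaving out each library in turn gave 0 to 13 by edgeR, with 13 (11 lower, 2 higher) without DMSO replicate 2, and 0 to 11 by DESeq2 with lengths, with 11 without DMSO replicate 2, 1 without DMSO replicate 1 and 0 without either MYC-inhibited library. With 1 library left in a group, that library is assumed to vary like the other group. How many of all genes were called with a library left out was not taken. These counts therefore show how far the calls depend on single libraries and give no result about the members. The median log2FC of all members (-0.30) was -0.14 with library totals, -0.09 and -0.14 with limma at pseudocounts of 1 and 0.1, and -0.43 to -0.05 with each library left out. The H3K27 median (0.21) was 0.34 with library totals and 0.34 and 0.35 with limma, and the H3K36 median (-0.40) was -0.13 with limma at a pseudocount of 1 and -0.57 to -0.06 with each library left out. The H3K4 median (-0.49) ranged from -0.61 to -0.05 and the H3K9 median (-0.59) from -0.66 to -0.34 with each library left out. The sign reversed for genes near 0. Cxxc1 (-0.08) was 0.12 with library totals, 0.11 and 0.24 with limma and -0.69 to 1.0 with each library left out (1.0 without DMSO replicate 1 and 0.04 without MYC-inhibited replicate 2). Ezh1 (-0.09) was 0.09, 0.12 and 0.14 in those settings and -0.54 to 0.56 with each library left out (0.56 without DMSO replicate 1). Setd3 (-0.13) was 0.09 and 0.11 with limma and -0.58 to 0.55 with each library left out (0.55 without DMSO replicate 2). In the same way Kdm4d (-0.33) ranged from -2.44 to 0.53 (0.39 without DMSO replicate 1 and 0.53 without MYC-inhibited replicate 1), Kdm7a (0.15) from -0.05 (without DMSO replicate 1) to 0.41, Setdb1 (-0.27) from -0.63 to 0.06 and Suz12 (0.07) from -0.03 to 0.20, the last 2 reversing without MYC-inhibited replicate 1. Of the other values of single named genes under the alternatives, 459 kept their direction and side of the threshold and 24 passed it. The cause was not tested. Whether the replicate number pairs the libraries cannot be settled from these data. The deviations of same-numbered libraries from their group means had a correlation of -0.03. With 2 libraries in a group, both replicate numbers must give the same value. With the replicate block 0 members were called, the member median was -0.30, Cxxc1 was 0.13 and Ezh1 was 0.00. Depth limited 3 members (Setd7, Kdm8 and Suv420h2), whose counts were too few for a level.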

Other observations

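The ratio of paralogues within a library, chosen after the values were seen, did not overlap between the groups for several pairs. Of single tested genes, 28.3% were lower without overlap of the groups in CPM and 28.9% were higher. The share over ratios of other gene pairs was not taken, so the number of pairs is no result about paralogues. Suv39h2 against Suv39h1 in FPKM was 0.645 and 1.08 in DMSO replicates 1 and 2 and 1.89 and 2.13 in MYC-inhibited replicates 1 and 2. Kdm1b against Kdm1a was 0.414 and 0.891 in the DMSO and 2.13 and 1.96 in the MYC-inhibited libraries. Kdm3a against Kdm3b was 4.9 and 11.1 in the DMSO and 13.6 and 15.6 in the MYC-inhibited libraries, and Kdm6a against Kdm6b was 14.6 and 11 against 6.74 and 9.42. Suv420h1 against Suv420h2 was 154 and 418 against 60.6 and 25.4, with between 2 and 21 counts of Suv420h2 in a library. The DMSO libraries lay below the MYC-inhibited ones in the first 3 of these pairs and above them in the last 2, and with 2 libraries against 2 the exact permutation test cannot give a p under 0.333. The groups overlapped for Kdm5b against Kdm5a (6.15 and 4.18 against 5.56 and 7.14), Ezh2 against Ezh1 (7.62 and 26.8 against 19.4 and 18.2) and Ehmt1 against Ehmt2 (3.15 and 3.53 against 5.74 and 2.96).

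The effective length that RSEM assigns to a gene depends on which of its isoforms receive the reads. For Suv420h1 it was 3573 and 3754 bases in the DMSO and 3344 and 3162 bases in the MYC-inhibited libraries, and its log2FC was -1.58 by DESeq2 without the lengths and -1.41 with them. For Whsc1l1, the H3K36 writer now named Nsd3, it was 5769 and 4971 bases in the DMSO and 4503 and 4571 bases in the MYC-inhibited libraries. Isoform levels were not analysed here, and which isoforms differ was not tested.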
